A study of Homo sapiens with 3 samples.

Results

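The genes of the tumour necrosis factor (TNF) ligand and receptor superfamilies were followed in SKBR3, an established human breast cancer cell line with ERBB2 amplification. Members were the probe sets whose single gene symbol in the platform annotation begins with TNFSF or TNFRSF, or is one of the older family names such as TNF, LTA, LTB, LTBR, FAS, FASLG, CD40, CD27, CD70, NGFR, EDAR, EDA2R and RELT. This gave 46 of the 19775 genes measured, read by 91 probe sets. The 46 comprised 15 ligands, 28 receptors and 3 non-coding RNAs that take their names from receptor genes beside them. Of the receptors, 8 carry a death domain, 3 are known as decoys and 17 are of other kinds. Of the members, 21 had 1 probe set and 25 had several, up to 5, whose median on each array was taken as the value of the gene.

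For 4 h the cells were kept in medium whose serum (10%) had been stripped of steroid hormones with charcoal. They then received 1 µM estradiol, 1 µM ERα17p, a synthetic peptide copied from a stretch of oestrogen receptor α, or 0.1% ethanol as vehicle, and RNA was taken 3 h later. The solvent of ERα17p is not named in the labels, and a share of ethanol was recorded for the vehicle array only, not for the estradiol array. Each of the 3 conditions had 1 array, so the differences carry neither replicate error nor p-value, and the effect of a treatment cannot be told apart from a difference between 2 cultures or 2 arrays. SKBR3 is known to lack oestrogen receptor α and to carry the G protein-coupled oestrogen receptor. The series thus asks what estradiol and the peptide do early in a cell without the classical receptor.

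Most ligands of this superfamily are membrane proteins that act as trimers on neighbouring cells or are shed by proteases. Some receptors with a death domain can recruit FADD and caspase-8 and start apoptosis. Many receptors, with or without a death domain, switch on NF-κB and JNK signalling through TRAF adaptors. Decoy receptors bind ligand without passing the signal on. TNF is itself a well-known target of NF-κB, as are several of the other ligands and receptors, so the family is both a source and a product of inflammatory signalling. In epithelial tumour cells it is known above all for TRAIL (TNFSF10) and its death receptors, and for TNF.

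In the deposited values each probe set has been centred around a baseline of its own. Arrays can therefore be compared gene by gene, but the level of one gene cannot be set against that of another, and it cannot be read whether a member was expressed at all. For the same reason the luminal identity of the cells could not be checked by levels. "Higher" and "lower" refer to gaps of 1.5-fold or more between arrays, which is 0.585 in log2 units. Against that baseline the vehicle array lay further out than the other 2. At least 1.5-fold above the baseline lay 1 gene on the estradiol array, 13 on the ERα17p array and 465 on the vehicle array. Over probe sets the SD was 0.12 with estradiol, 0.13 with ERα17p and 0.27 with vehicle. The gap between 3′ and 5′ probe sets of ACTB widens as RNA breaks down. In centred values it can be read only relative to its size at the baseline, not as the gap itself. Relative to the baseline it was 0.02 with estradiol, -0.04 with ERα17p and 0.30 with vehicle. For GAPDH the gap relative to the baseline was 0.01 with estradiol, -0.03 with ERα17p and 0.05 with vehicle. Their part in the results was not tested.

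On both treated arrays the family was marked by lower values of a few members and near-equal values of most. On the estradiol array 7 of 46 members were lower than on the vehicle array (15.2%) and 0 were higher. Over all genes 2.93% were lower and 0.809% were higher. On the ERα17p array 6 members were lower (13.0%) and 1 was higher (2.17%), against 2.14% and 0.582% of all genes. The lower members were TNF, TNFSF9, TNFRSF11B, TNFRSF10B and TNFRSF10A in both comparisons. CD40 and TNFSF4 passed the threshold with estradiol and TNFSF13B with ERα17p, and in the comparison where they did not pass it their differences were -0.49, -0.45 and -0.53. The median over the 46 members nevertheless lay near 0. It was -0.03 with estradiol and -0.07 with ERα17p, beside medians of 0.03 and 0.03 over all genes. The 2 comparisons share the vehicle array and are not separate evidence.

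**Figure D1:**
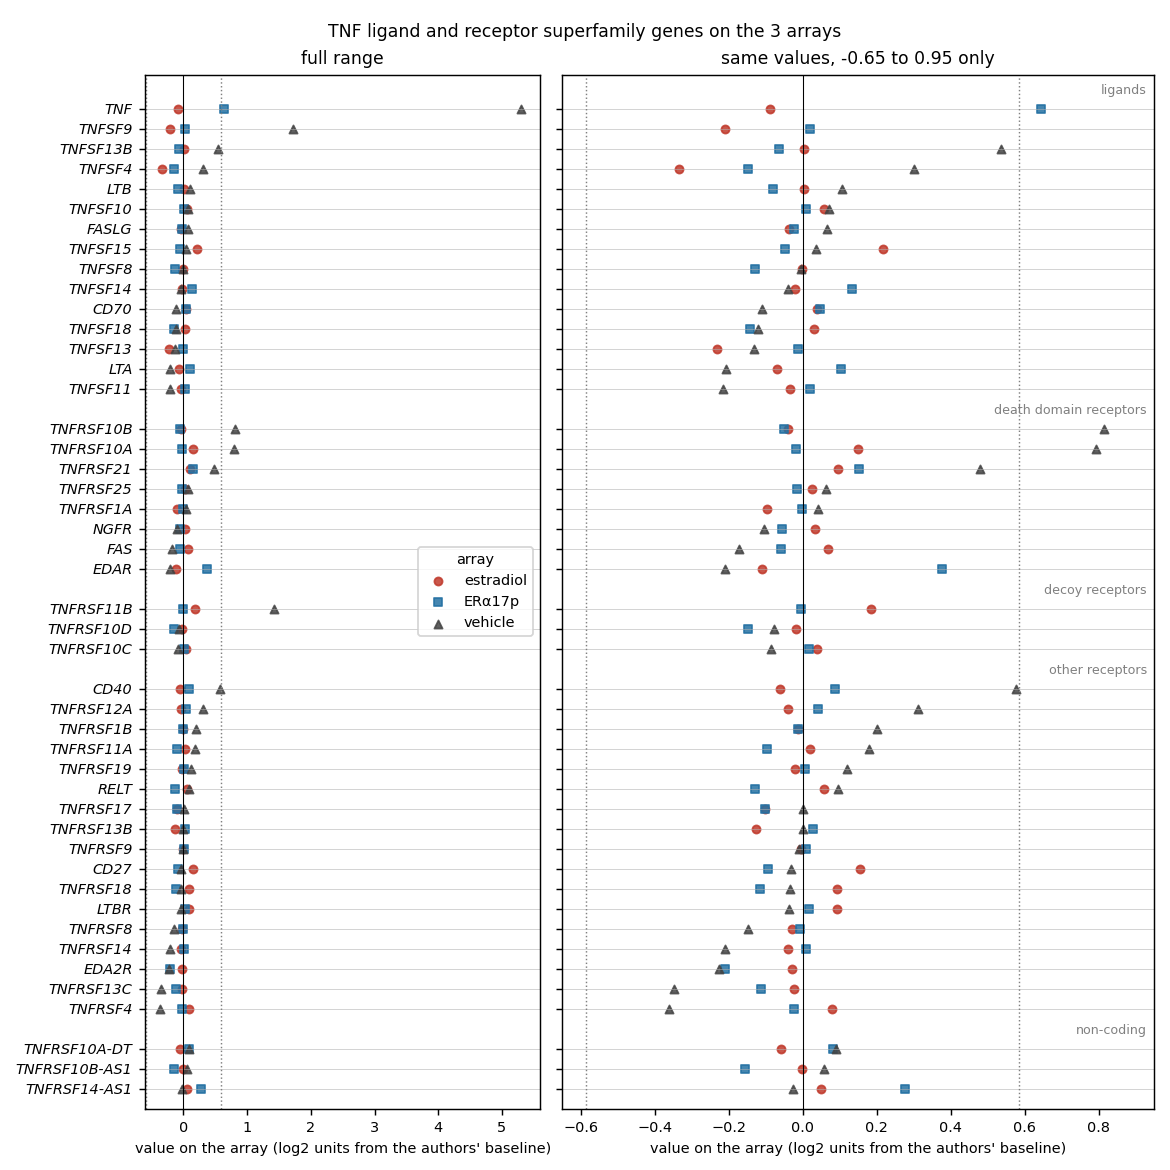
Value of each of the 46 family genes on the estradiol (circles), ERα17p (squares) and vehicle (triangles) arrays, in log2 units from the authors' baseline, grouped by role. The left panel shows the full range and the right panel enlarges the part around 0, with dotted lines at 1.5-fold. The vehicle triangles of TNF (5.30), TNFSF9 (1.73) and TNFRSF11B (1.41) lie far to the right, while treated values stay near 0, except for TNF with ERα17p (0.64).

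Distances from the baseline do not say which array departed, since the arrays behind it are not known and a pair of similar arrays lies near a median of few. On the vehicle array 5 members, TNF, TNFSF9, TNFRSF11B, TNFRSF10B and TNFRSF10A, lay at least 1.5-fold above the baseline and 0 lay below it. Over all genes 2.35% lay above and 0.303% below. On the estradiol array 0 members passed 1.5-fold against the baseline either way, beside 0.00506% of all genes above it and 0.0506% below it. On the ERα17p array 1 member did, TNF, which lay above it, beside 0.0657% of all genes above and 0.00506% below.

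Among the ligands, 3 of 15 were lower in each comparison with the vehicle array. TNF, the founding cytokine of the family, had -0.09 on the estradiol array, 0.64 on the ERα17p array and 5.30 on the vehicle array, in log2 units from the baseline. It was thus 41.8-fold lower with estradiol and 25.2-fold lower with ERα17p than with vehicle (differences of -5.38 and -4.65). In both comparisons it ranked 5 from the lowest among the 19775 genes. TNF was read by a single probe set, so no second probe set of its own stands beside these values.

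TNFSF9, which encodes 4-1BB ligand, a costimulator of T cells, came next among the ligands. Its value was -0.21 on the estradiol array, 0.02 on the ERα17p array and 1.73 on the vehicle array. That made it 3.83-fold lower with estradiol and 3.26-fold lower with ERα17p (differences of -1.94 and -1.71), again from 1 probe set. Its receptor gene TNFRSF9 did not share this, with differences of 0.00 and 0.02.

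The sequences around the starts of TNF and TNFSF9 are shown because these ligands differed most, beside those of LTA and LTB, which flank TNF on either side on chromosome 6 and differed little. Each runs 5′ to 3′ over 300 bases, 250 before and 50 from the annotated start, in RefSeq's annotation of GRCh38.p14. The regions are chr6:31575315-31575614 on the plus strand for TNF, chr19:6530776-6531075 on the plus strand for TNFSF9, chr6:31572039-31572338 on the plus strand for LTA, and chr6:31582375-31582674 on the minus strand for LTB. For LTA and LTB, which have 2 starts each in that table, the one further downstream is given. Capitals mark matches to TATAAA, to TGANTCA, the site of AP-1 factors, or to the κB motif, the site of NF-κB. The κB motif was written as GGGRNNYYCC. Here N is any base, R is A or G, and Y is C or T. Both strands were searched, and matches that overlap were kept.
TNF: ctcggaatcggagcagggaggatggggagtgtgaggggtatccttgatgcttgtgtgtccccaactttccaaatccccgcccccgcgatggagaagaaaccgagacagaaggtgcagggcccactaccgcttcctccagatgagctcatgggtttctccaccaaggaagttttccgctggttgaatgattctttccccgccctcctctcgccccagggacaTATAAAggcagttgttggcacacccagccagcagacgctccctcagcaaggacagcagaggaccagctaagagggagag
TNFSF9: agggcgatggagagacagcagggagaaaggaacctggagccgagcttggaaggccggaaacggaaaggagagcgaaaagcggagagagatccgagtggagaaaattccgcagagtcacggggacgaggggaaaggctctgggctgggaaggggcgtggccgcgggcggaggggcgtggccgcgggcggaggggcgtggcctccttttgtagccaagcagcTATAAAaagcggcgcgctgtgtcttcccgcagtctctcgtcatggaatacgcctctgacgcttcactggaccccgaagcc
LTA: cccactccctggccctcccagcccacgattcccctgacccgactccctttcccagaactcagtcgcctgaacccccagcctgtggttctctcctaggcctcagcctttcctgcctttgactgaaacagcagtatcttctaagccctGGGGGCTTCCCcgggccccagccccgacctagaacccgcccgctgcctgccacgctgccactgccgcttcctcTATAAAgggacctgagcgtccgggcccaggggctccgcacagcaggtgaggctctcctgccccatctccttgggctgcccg
LTB: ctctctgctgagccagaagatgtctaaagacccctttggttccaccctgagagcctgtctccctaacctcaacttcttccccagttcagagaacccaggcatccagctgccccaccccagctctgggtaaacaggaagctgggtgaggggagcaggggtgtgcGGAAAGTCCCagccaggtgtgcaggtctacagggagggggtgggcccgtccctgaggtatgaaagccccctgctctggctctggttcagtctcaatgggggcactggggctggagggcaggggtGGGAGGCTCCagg
TNF, TNFSF9 and LTA hold TATAAA with its first base 29, 30 and 31 bases before the start. Of all 34796 distinct promoter sequences of this length in the table, 11.6% hold it. GGGRNNYYCC was matched in LTA, where a pair of matches overlap, and in LTB, with 1 match before the start and 1 after it. It occurs in 11.3% of all promoters. TNF holds gggtttctcc, which has T where this pattern asks for A or G, so it was not marked. A window without a match can thus still hold a site of NF-κB. TGANTCA occurs in 7.73% of all promoters and in 0 of the 4 shown. Promoter sequences were found for 30 of the 46 members, of which 6 hold TATAAA, 10 the κB motif and 7 TGANTCA. CD40, TNFRSF10A, TNFRSF10B and TNFRSF11B were not among the 30. A member was counted if any of its starts held the motif, while the shares are per distinct promoter sequence. The member counts cannot be set against those shares. A match describes letters in this window and is not a measured binding site.

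TNFSF4, which encodes OX40 ligand, had -0.34 on the estradiol array, -0.15 on the ERα17p array and 0.30 on the vehicle array. It was lower with estradiol (-0.64, 1.55-fold) and stayed within 1.5-fold with ERα17p (-0.45). TNFSF13B, which encodes BAFF, a survival factor of B cells, had 0.00 on the estradiol array, -0.06 on the ERα17p array and 0.53 on the vehicle array. It was lower with ERα17p (-0.60, 1.51-fold), and with estradiol it lay just inside the limit (-0.53). Both of these genes lie close to 1.5-fold in both comparisons, so that being called in 1 of them alone does not set estradiol and ERα17p apart. Between the treated arrays TNFSF4 differed by -0.19 and TNFSF13B by 0.07.

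The other 11 ligands lay within 1.5-fold in all 3 comparisons. TNFSF10, which encodes TRAIL, had differences of -0.01 with estradiol and -0.06 with ERα17p against vehicle. Its 3 probe sets lay on both sides of 0, from -0.17 to 0.07 with estradiol and from -0.46 to 0.02 with ERα17p. FASLG, the ligand of the death receptor FAS, had -0.10 and -0.09. LTA, which encodes lymphotoxin α, had 0.14 and 0.31, and LTB, its membrane-bound partner, had -0.10 and -0.19. TNFSF11, which encodes RANKL, the osteoclast differentiation factor, had 0.18 and 0.24. CD70 (0.15 and 0.16), TNFSF14 (0.02 and 0.17), TNFSF15 (0.18 and -0.08), TNFSF18 (0.15 and -0.02), TNFSF13 (-0.10 and 0.12) and TNFSF8 (0.00 and -0.13) complete the ligands.

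Receptors with a death domain were lower in 2 of 8 cases in each comparison with the vehicle array, and these were both signalling receptors of TRAIL. TNFRSF10B, which encodes DR5, had -0.04 on the estradiol array, -0.05 on the ERα17p array and 0.81 on the vehicle array. It was 1.81-fold lower with estradiol and 1.82-fold lower with ERα17p (-0.85 and -0.87). TNFRSF10A, which encodes DR4, had 0.15 on the estradiol array, -0.02 on the ERα17p array and 0.79 on the vehicle array. It was 1.56-fold lower with estradiol and 1.75-fold lower with ERα17p (-0.64 and -0.81).

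The receptors of TNF itself stayed near 0. TNFRSF1A, the death domain receptor that most cells carry, had -0.10 on the estradiol array, -0.00 on the ERα17p array and 0.04 on the vehicle array. TNFRSF1B, the receptor without a death domain, had -0.01 on the estradiol array, -0.01 on the ERα17p array and 0.20 on the vehicle array. Against vehicle TNFRSF1A differed by -0.14 and -0.04, and TNFRSF1B by -0.21 and -0.21. So the ligand TNF differed by 25.2-fold or more, while both of its receptor genes differed by less than 1.5-fold.

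EDAR, the ectodysplasin receptor of skin appendages, was the only member called higher. It had -0.11 on the estradiol array, 0.38 on the ERα17p array and -0.21 on the vehicle array, from 1 probe set. Its difference of 0.586 with ERα17p against vehicle is barely over the threshold, and the value with estradiol was 0.10. The other death domain receptors lay within 1.5-fold in all 3 comparisons. TNFRSF21, which encodes DR6, leaned low (-0.38 with estradiol and -0.33 with ERα17p), FAS had 0.24 and 0.11, NGFR had 0.14 and 0.05, and TNFRSF25 had -0.04 and -0.08. The 5 probe sets of FAS lay on both sides of 0, from -0.34 to 0.40 with estradiol and from -0.35 to 0.19 with ERα17p.

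Of the decoys, TNFRSF11B was the one that differed. It encodes osteoprotegerin, a secreted receptor that captures RANKL and TRAIL. Its value was 0.18 on the estradiol array, -0.00 on the ERα17p array and 1.41 on the vehicle array, which made it 2.35-fold lower with estradiol and 2.67-fold lower with ERα17p (-1.23 and -1.42). The decoy receptors of TRAIL, TNFRSF10C and TNFRSF10D, did not follow the signalling receptors TNFRSF10A and TNFRSF10B. They had differences of 0.12 and 0.06 with estradiol and 0.10 and -0.07 with ERα17p.

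CD40, a receptor of antigen-presenting and some epithelial cells, was the only one of the 17 remaining receptors to pass 1.5-fold. It had -0.06 on the estradiol array, 0.09 on the ERα17p array and 0.58 on the vehicle array, with differences of -0.64 (1.55-fold) with estradiol and -0.49 with ERα17p against vehicle. Between the treated arrays it differed by -0.15, so its call with estradiol does not set estradiol and ERα17p apart. TNFRSF12A, the TWEAK receptor, leaned low at -0.35 and -0.27, and TNFRSF4, the OX40 receptor, leaned high at 0.44 and 0.34. TNFRSF11A, which encodes RANK, had -0.16 and -0.27, and TNFRSF13C, the BAFF receptor, 0.33 and 0.24. The lymphotoxin β receptor gene LTBR had 0.13 and 0.05. The other 11 of these receptors, among them CD27, TNFRSF14 and RELT, lay between -0.22 and 0.22 in both comparisons. The 3 non-coding members lay within 1.5-fold throughout, with TNFRSF14-AS1 at 0.07 and 0.30, TNFRSF10A-DT at -0.15 and -0.01, and TNFRSF10B-AS1 at -0.06 and -0.21.

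**Figure D2:**
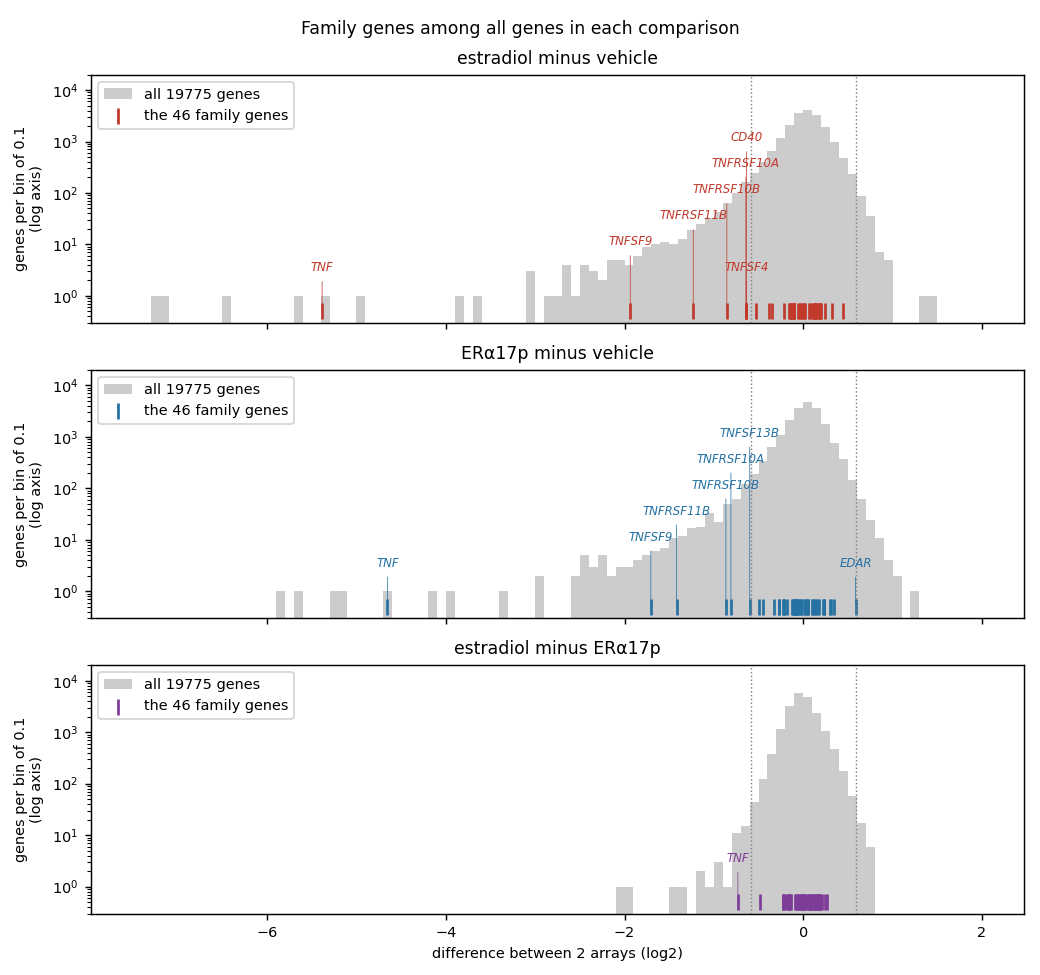
Number of genes (log axis) by difference between 2 arrays (log2) for all 19775 genes in grey, with the 46 family genes as ticks and dotted lines at 1.5-fold. TNF lies at -5.38 and -4.65 in the comparisons with vehicle and at -0.73 between estradiol and ERα17p, and most other ticks lie between the dotted lines.

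Many members lie next to each other in the genome. With at most 3 protein-coding genes between neighbours, 22 members form 8 groups, and in 4 of these some members were lower while others were not. How often neighbours differ in this way over all genes was not computed. With few members called, mixed groups are likely in any case, so this count does not set the family apart. In the group on chromosome 6, TNF lies directly between LTA and LTB, and only TNF passed 1.5-fold. On chromosome 19, TNFSF9 was lower while its neighbours CD70 and TNFSF14 were not, and on chromosome 1, TNFSF4 was lower with estradiol while TNFSF18 and FASLG beside it were not. On chromosome 8 the 4 TRAIL receptor genes lie side by side, with the lower TNFRSF10B and TNFRSF10A at the ends and the decoys between them. In the other 4 groups, which include TNFRSF1A, LTBR and CD27 on chromosome 12, 0 members passed 1.5-fold.

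**Figure D3:**
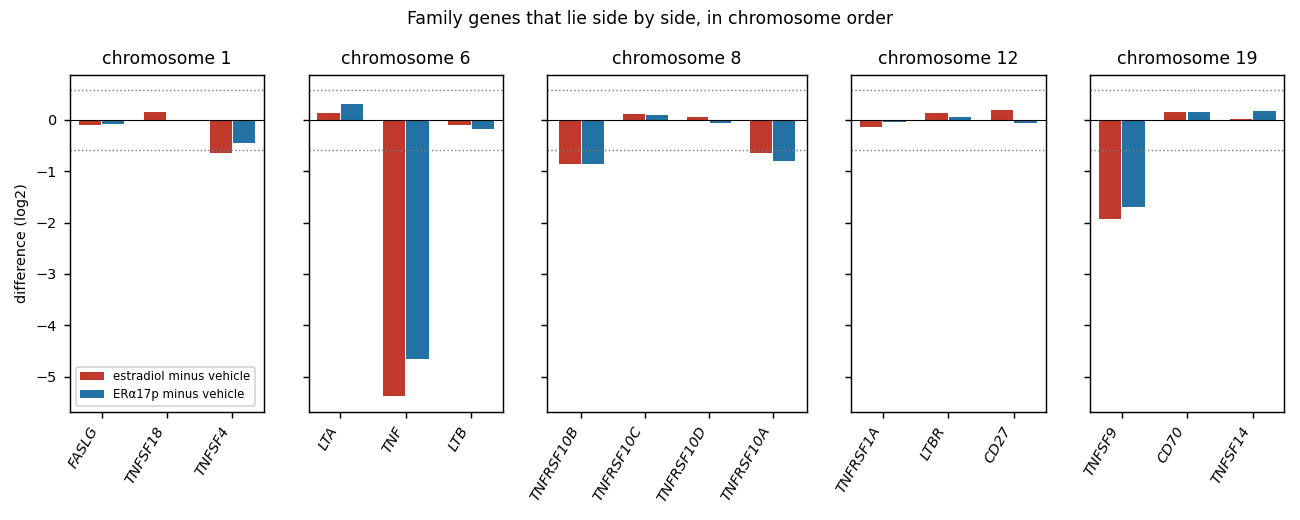
Differences (log2) of estradiol minus vehicle and ERα17p minus vehicle for the family genes in groups of 3 or 4 neighbours, in chromosome order, with dotted lines at 1.5-fold. TNF stands between LTA and LTB, which lie between -0.19 and 0.31, and TNFRSF10B and TNFRSF10A are low at both ends of the chromosome 8 group.

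Between estradiol and ERα17p the family was close to equal. TNF alone passed 1.5-fold. It was 1.66-fold lower with estradiol than with ERα17p (-0.73), from array values of -0.09 with estradiol and 0.64 with ERα17p, and ranked 17 from the lowest of all genes. This is 2.17% of the members, beside 0.207% of all genes lower and 0.147% higher. TNF lay near the baseline on the estradiol array and above it on the ERα17p array. EDAR came next at -0.49, followed at the low end by TNFSF9 at -0.23, and at the high end stood TNFSF15 (0.26), CD27 (0.25) and TNFRSF18 (0.21). The median over members was 0.01, and over all genes -0.01. TNFRSF1B and TNFRSF17 held identical values on both treated arrays.

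Probe sets of 1 gene share the RNA and do not replicate a treatment, but they show how far a gene's value rests on single probes. Both probe sets of TNFRSF11B were lower, at -0.89 and -1.57 with estradiol and at -1.17 and -1.67 with ERα17p. The 4 probe sets of TNFRSF10B ran from -2.07 to -0.22 with estradiol and from -1.94 to -0.31 with ERα17p, with 3 of 4 past 1.5-fold each time. The 3 of TNFRSF10A ran from -0.72 to -0.40 and from -0.86 to -0.56, and had 2 past 1.5-fold. CD40 was split. The same 2 of its 4 probe sets were lower with estradiol (-1.13 and -0.98) and with ERα17p (-0.97 and -0.85), and the other 2 had -0.28 and -0.05 with estradiol and -0.27 and 0.30 with ERα17p.

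For TNFSF13B the probe sets disagreed on which treatment differed more, with -0.67 and -0.39 for estradiol and -0.36 and -0.83 for ERα17p. Of the 25 members with several probe sets, 13 had all of them on one side of 0 with estradiol and 13 with ERα17p against vehicle. Between the treated arrays 10 did. The same share over all genes was not computed, so these counts do not set the family apart. Another 10 probe sets carry several symbols, with a family name among or within them, and were left out. They include those of TNFSF12, which encodes TWEAK, and TNFRSF6B, a decoy of FAS ligand, and 0 of the 10 passed 1.5-fold in any comparison. Some of the 10 name RTEL1 and its joint transcript with TNFRSF6B, and not TNFRSF6B alone.

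**Figure D4:**
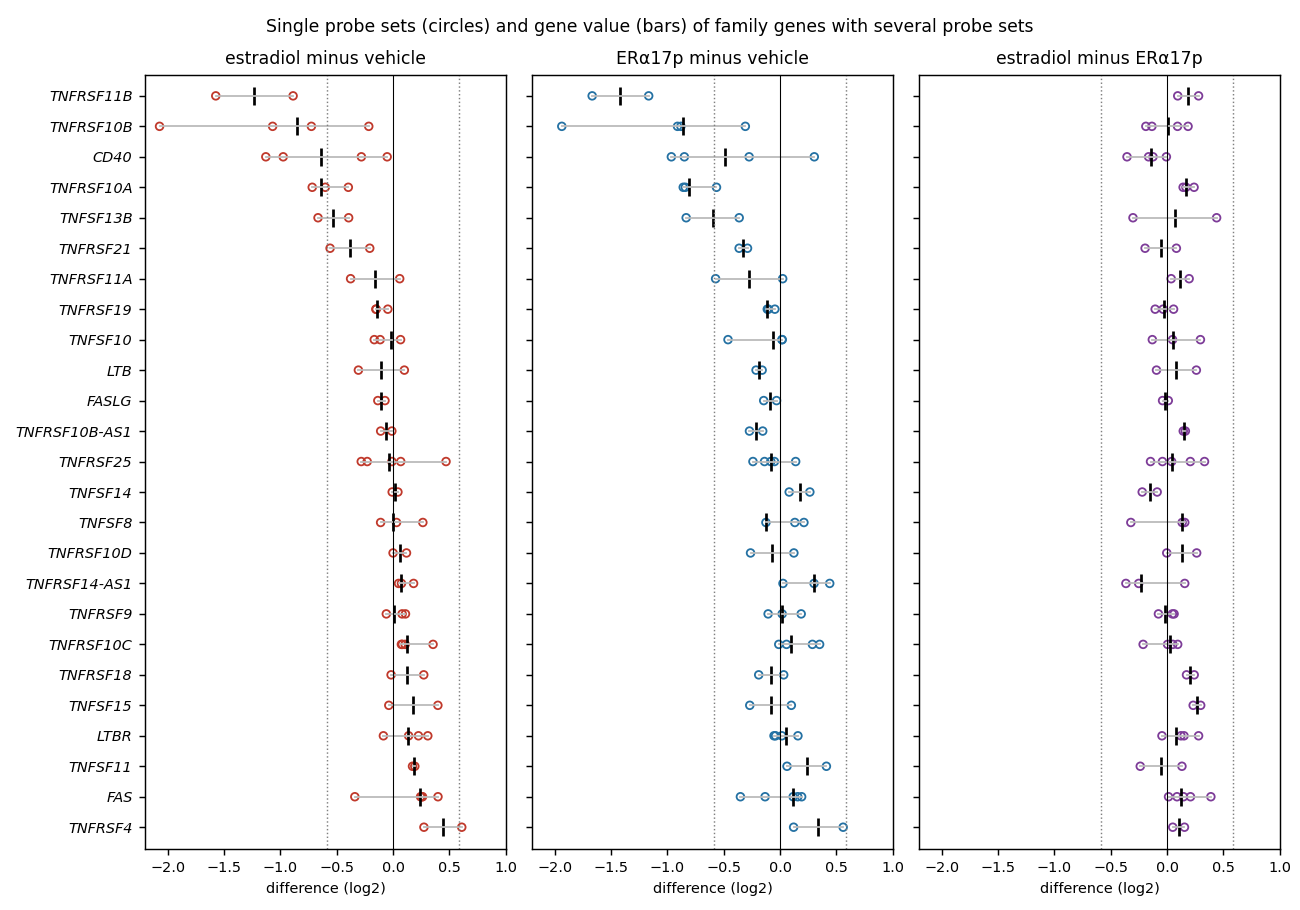
Difference (log2) of each probe set (circles) and of the gene value (black bars) for the 25 family genes with several probe sets, in the 3 comparisons, with dotted lines at 1.5-fold. All probe sets of TNFRSF11B, TNFRSF10B and TNFRSF10A lie below 0 in the comparisons with vehicle, while those of CD40 run from -1.13 to -0.05 with estradiol and from -0.97 to 0.30 with ERα17p.

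Around the receptors, 5 lists of pathway genes outside the family held 70 measured genes. Of these, 11 were lower with estradiol (15.7%) and 10 with ERα17p (14.3%) against vehicle, shares close to those of the family itself (15.2% and 13.0%), beside 2.93% and 2.14% of all genes, and 0 were higher. The lists were chosen with earlier results known. Of 15 measured adaptors and ubiquitin ligases, 2 were lower in each comparison with vehicle and 0 were higher, with medians of -0.08 for estradiol and -0.04 for ERα17p. They were TRAF3, a brake on non-canonical NF-κB signalling (-0.64 and -0.69), and CYLD, a deubiquitinase that limits NF-κB (-0.70 and -0.61). The 7 probe sets of CYLD ran from -1.69 to -0.03 with estradiol. In the death signalling list 1 of 12 genes was lower in each, BID, which links caspase-8 to mitochondria (-0.62 and -0.64), and the medians were -0.02 and 0.00. FADD, the death domain adaptor, leaned high at 0.54 and 0.53, and CFLAR, the caspase-8 inhibitor FLIP, leaned low at -0.44 and -0.39.

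Of 15 kinases of the NF-κB and JNK branches, 2 were lower with estradiol and 1 with ERα17p, and the medians were -0.24 and -0.12. MAP3K8, a kinase known to be needed for TNF production in macrophages, was 3.08-fold and 3.04-fold lower (-1.62 and -1.60). TBK1, a kinase of the interferon branch, had -0.67 and -0.53. Among 13 genes named as TNF-induced or TNFAIP3-interacting, 4 were lower in each comparison with vehicle, with medians of -0.30 and -0.37.

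TNFAIP3, a ubiquitin-editing brake on TNF receptor signalling, had -0.14 on the estradiol array, 0.84 on the ERα17p array and 4.84 on the vehicle array, or 31.5-fold and 15.9-fold lower. Like TNF it was lower with estradiol than with ERα17p, too (-0.98), the only gene outside the family on these 5 lists to be so. TNFAIP2 had -1.10 and -1.03 against vehicle, but its 2 probe sets were at -2.31 and 0.12 with estradiol. STEAP4 had -0.78 and -0.63, and TNFAIP6 -0.62 and -0.61. Each also had a probe set short of 1.5-fold in both comparisons, at -0.53 and -0.34 for STEAP4 and at -0.31 and -0.584 for TNFAIP6. Of 15 genes of ligand processing and TNF mRNA control, 2 were lower in each, and the medians were -0.04 and -0.05. They were ZFP36, tristetraprolin, which marks TNF mRNA for decay (-2.09 and -2.25), and its relative ZFP36L1 (-0.75 and -0.71). The 4 probe sets of ZFP36L1 were split, from -1.28 to -0.16 with estradiol and from -1.31 to 0.27 with ERα17p. ADAM17, the protease that sheds TNF, had -0.31 and -0.22.

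**Figure D5:**
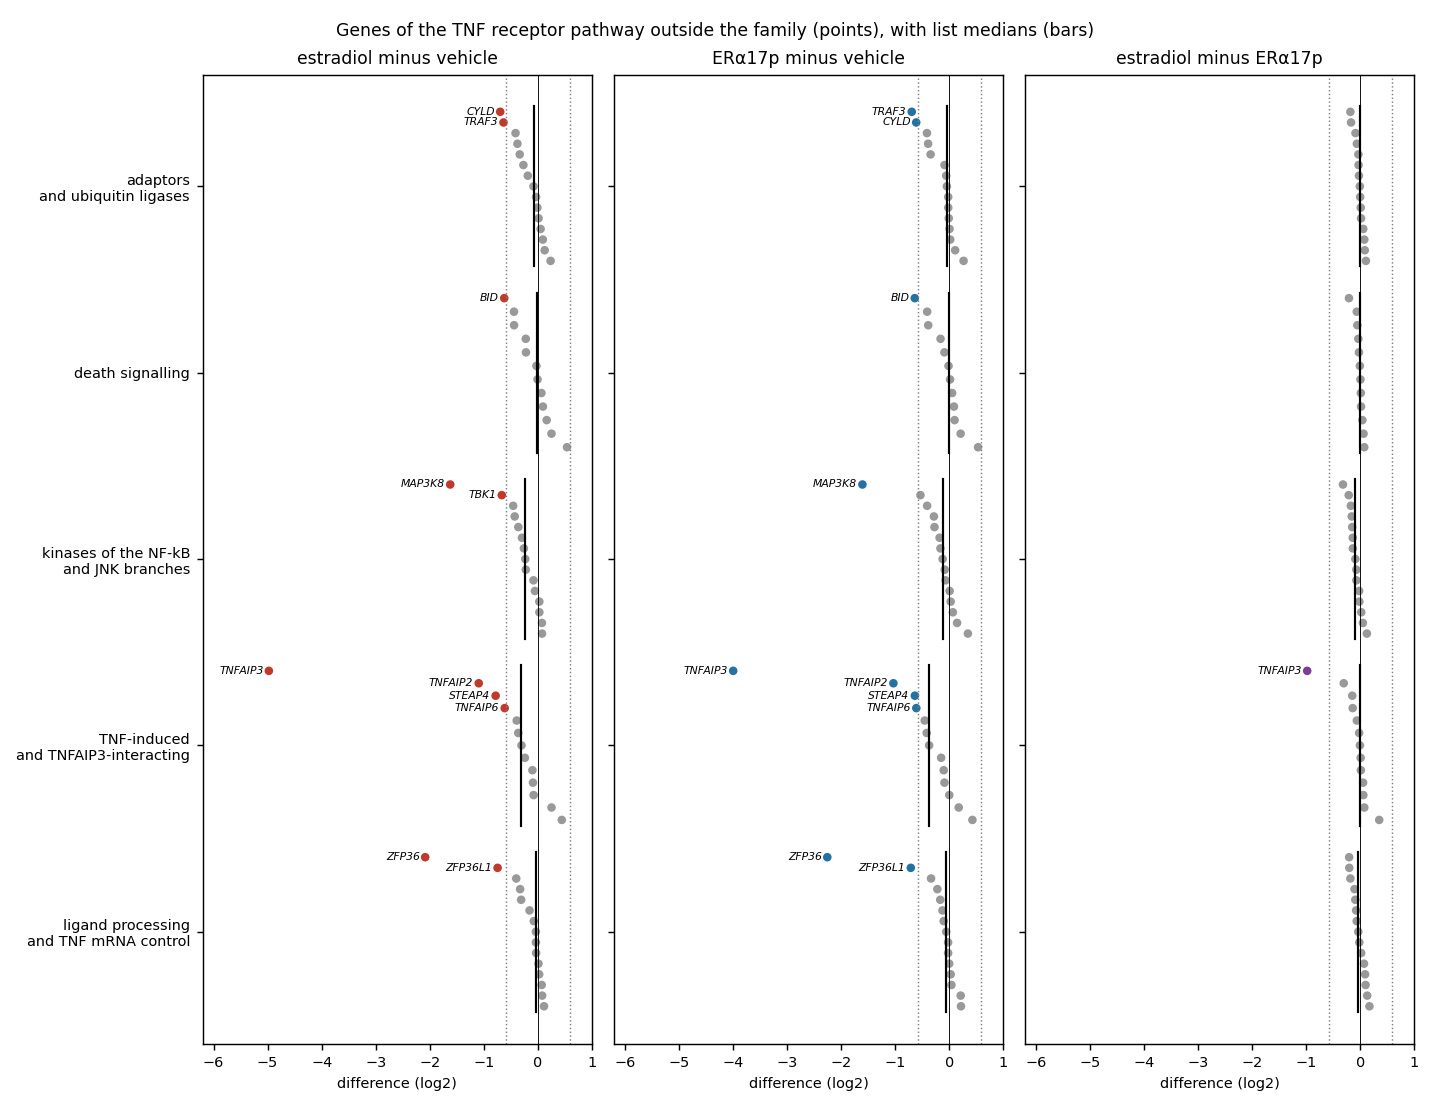
Difference (log2) of each measured gene (points, coloured and named past 1.5-fold) in 5 lists of TNF receptor pathway genes outside the family, with list medians as black bars and dotted lines at 1.5-fold. TNFAIP3 lies at -4.98 and -3.99 in the comparisons with vehicle and is the only gene past 1.5-fold between estradiol and ERα17p (-0.98).

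Markers of other cell types stayed within 1.5-fold. Of 9 measured leukocyte markers, PTPRC and CD14 among them, 0 passed 1.5-fold in any comparison, with medians of 0.02 for estradiol and 0.01 for ERα17p against vehicle. These markers ran from -0.20 to 0.42 with estradiol and from -0.22 to 0.45 with ERα17p, and CD3E was highest in both. On the vehicle array they lay between -0.35 and 0.13 from the baseline. Of 6 endothelial and fibroblast markers and of 9 luminal epithelial markers, 0 passed either. Whether any of these markers was expressed cannot be read from values centred in this way.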

How the data were processed

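The data were 3 Affymetrix arrays of SKBR3 cells, 1 per condition, grouped by the sample labels. The authors made the deposited values with RMA, per the submitters' processing notes. No RMA version is given in the sources used here. As RMA yields log2 values, the deposited ones were taken as log2, a base that the labels leave unnamed. They lie around 0, and 3979 of 54675 probe sets (7.28%) had 2 arrays with mirror images around 0 (tolerance 1e-06, values over 0.001). They were therefore taken as centred per probe set, on a median to which other arrays contributed.

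Gene symbols came from the platform annotation and were brought up to date by Entrez ID (GRCh38.p14). Of 41091 probe sets with 1 symbol, which give 19775 genes, 41037 matched and 0 symbols changed. Probe sets of a gene were summarised by their median on each array, and comparisons were differences of 2 arrays (pandas 2.3.3). No filter on dim probe sets was possible, signal over background is unknown, and the number of arrays limits the precision. No test was possible with 1 array per condition; genes past 1.5-fold were counted. The steps were tested on simulated data. The members and the lists were chosen with earlier results of these data known. Named genes were those past 1.5-fold, the 3 members that differed most each way in a comparison, and TNF with its receptors. FADD, CFLAR and ADAM17 were named after their values were seen. Alternatives were the mean over probe sets, specific probe sets only, the most extreme probe set, a 2-fold threshold, arrays centred on their medians, the baseline in place of vehicle and, chosen after seeing the data, differences per probe set first.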

Additional observations from a re-analysis of the deposited data

How the results depend on the processing

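No paired analysis was possible because each condition had 1 array, and for the same reason no replicate could be left out. With a 2-fold threshold 3 members (TNF, TNFSF9 and TNFRSF11B) were lower with estradiol and 3 (the same ones) with ERα17p against vehicle, beside 0.895% and 0.738% of all genes. At that threshold 0 were higher with ERα17p (0.0152% of all genes), and 0 were lower with estradiol against ERα17p (0.0354%). With the authors' baseline in place of the vehicle array 0 members were lower on either treated array, in place of 7 and 6, and hardly any gene was (0.0506% and 0.00506%), so this count says nothing about the family. Without probe sets whose suffix (_x_at or _s_at) marks probes shared between transcripts, 6 members drop out, TNF, TNFSF4 and TNFRSF1A among them, so that 0 were lower with estradiol against ERα17p, and 1 member, TNFRSF4, was higher with estradiol against vehicle (1.09% of all genes). With each gene's most extreme probe set 1 member, TNFRSF4 again, was higher with estradiol against vehicle (2.67% of all genes), and 8 with estradiol and 7 with ERα17p were lower (5.83% and 4.41%). With each array centred on its median EDAR came to 0.56, leaving 0 members higher with ERα17p. The medians over members moved by less than the typical spread between probe sets of 1 gene (0.16, 0.15 and 0.13 log2 units) under all alternatives run for them. That spread is wide for a median over many genes, so this comparison says little. Without those suffixes the median with estradiol against vehicle changed sign, from -0.03 to 0.06 over the 40 members left. Among the named members, CD40 came to -0.35 with estradiol without those suffixes. In that setting TNFSF13B, TNFRSF10B and TNFRSF11B each rest on a single probe set. Their values there were -0.67 with estradiol and -0.36 with ERα17p for TNFSF13B, -2.07 and -1.94 for TNFRSF10B, and -1.57 and -1.67 for TNFRSF11B. TNFRSF10A came to -0.57 with estradiol with the mean over probe sets. Members kept their sign under the alternatives run for them in the comparisons where they were called. Between the treated arrays, where neither was called, TNFSF13B turned from 0.07 to -0.30 without those suffixes and TNFRSF10B from 0.01 to as low as -0.14. Signal over background is unknown for every member, and 1 array per condition leaves no measure of error.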
